A study of Homo sapiens with 6 samples.

Results

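The metallothioneins and MTF1, the transcription factor that drives them, were followed in BT474, a breast cancer cell line that carries the estrogen receptor and an amplified HER2 gene. The members were 9 metallothionein genes (MT1A, MT1E, MT1F, MT1G, MT1H, MT1M, MT1X, MT2A and MT3) and MTF1, and every probe whose gene name equals 1 of these was taken, which gave 12 probes for 10 genes of the 43317 gene names and 58201 probes on the array. MT1E had 3 probes and the other 9 genes had 1 each. RNA was hybridized to 6 one-color Agilent arrays, 2 for each of 3 cell populations. Control cells carried empty pcDNA3.1, BT474-Var1 cells carried the long transcript variant 1 of the long non-coding RNA NR2F1-AS1 in that plasmid, and BT474-Var4 cells carried its short variant 4. All populations were kept in RPMI-1640 with serum. The study's methods name a pcDNA3.1 backbone with P2A-eGFP for variant 4 and pcDNA3.1/Hygro(+) for variant 1, each with its own empty plasmid, and do not say which empty plasmid the Control cells of these arrays carried. Transfected and control cells had gone through antibiotic selection, and the variant populations had grown back from few survivors, so each stands for the survivors of 1 selection. The 2 arrays of a population are not stated to come from separate cultures, and p-values then measure only the spread between these samples.

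Metallothioneins are small, cysteine-rich proteins that bind zinc and copper in thiolate clusters and buffer these metals and oxidants in the cytosol. Most of the human genes lie side by side on the long arm of chromosome 16. Free zinc loads MTF1, which then binds metal response elements in their promoters, and MTF1 also acts on a zinc exporter gene and a few genes outside the family. In breast epithelium MT2A is usually the main transcript, MT1 genes differ between tumors, and MT3 is best known from the brain.

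Because the coding and 3′ sequences of these genes are alike, the probe letters matter for what each value measures. The MT1A probe (hg19 chr16:56673205-56673808, plus strand) is shown because its letters carry the cysteines that hold the metal. Its 60 bases lie in a span of 604 bases and make 20 codons, of which the 8 in capitals code for cysteine.
MT1A: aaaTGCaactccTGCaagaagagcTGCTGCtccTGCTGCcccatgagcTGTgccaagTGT
The transcripts that the array's annotation lists for this probe belong to MT1A and MT1M. Over the 46 bases that could be compared, 42 matched the probe of MT1HL1, a metallothionein-like gene on chromosome 1.

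MT1E has a pair of overlapping probes on the plus strand, an upstream probe at hg19 chr16:56660853-56660912 and a downstream probe at chr16:56660883-56660942. Their shared 30 bases, chr16:56660883-56660912, are shown because the probes moved in opposite directions. Capitals mark the 1 base at which they differ, A29T, with the upstream probe's base first and positions counted from 1 at the 5′ end of the shared stretch.
MT1E upstream: atgtgggaacagctcttctcccagatgtAa
MT1E downstream: atgtgggaacagctcttctcccagatgtTa
The annotation lists only MT1E for the upstream probe, and MT1E, MT1M and the pseudogene MT1JP for the downstream probe. The third MT1E probe lies further upstream, at chr16:56660614-56660673.

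The probes of MT1X, MT1F and MT1H and the downstream MT1E probe, 4 of the 19 probes of the family, end in the same 9 bases. Their last 30 bases are shown because the MT1F and MT1X probes rose together in BT474-Var4 cells. Capitals mark bases that differ from the MT1X probe.
MT1X: tagagcaacctatataaacctggatttttt
MT1F: CagagAGacAtGtaCaaacctggatttttt
MT1H: CagaATGacACGtaAaaTccAggatttttt
MT1E downstream: ATAGAACaAcCTGCACaacctggatttttt
Over the whole 60 bases, MT1F matched MT1X at 49 positions and MT1H matched it at 44. The downstream MT1E probe matched the MT1X probe at 21 of 60 positions in the register shown, but at 42 of 59 when shifted by 1 base. How far each probe binds transcripts of the other genes was not tested.

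Promoter windows from RefSeq (GRCh38.p14, 250 bases before to 50 after the gene start) were at hand for 4 of the 10 members, MT2A, MT1X, MT1H and MTF1. They were searched on both strands for the core of the metal response element, spelled TGCACNC or TGCGCNC. The 150 bases before the start of 3 of them are shown on the plus strand, with matches in capitals, because they carry the motif that MTF1 reads. The capitals that open the MT2A stretch are the end of a match that began before it.
MT2A chr16:56608434-56608583: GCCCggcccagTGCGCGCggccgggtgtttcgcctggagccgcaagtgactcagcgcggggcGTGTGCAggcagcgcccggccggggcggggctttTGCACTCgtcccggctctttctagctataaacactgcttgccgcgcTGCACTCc
MT1X chr16:56682320-56682469: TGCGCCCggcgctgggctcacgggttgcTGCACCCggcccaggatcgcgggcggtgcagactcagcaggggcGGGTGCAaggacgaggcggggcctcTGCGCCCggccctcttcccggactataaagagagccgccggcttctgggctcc
MT1H chr16:56669664-56669813: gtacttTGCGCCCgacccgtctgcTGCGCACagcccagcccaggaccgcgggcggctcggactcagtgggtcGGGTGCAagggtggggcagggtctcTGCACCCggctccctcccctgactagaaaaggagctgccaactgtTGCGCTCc
The whole windows held 8 matches for MT2A, 8 for MT1H and 4 for MT1X, and no match for MTF1. Of all 35116 windows of this length, 29.6% held at least 1 match, 0.601% held at least 4 and 0.0199% held at least 8. The MT1H window held as many matches as the MT2A window, and the MT1H probe was above background on no array.

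Levels are given as log2 of the processed intensity relative to the array's 75th percentile over probes, which stands at 0, and a level of 1 probe is not set against that of another. The scanner software had marked 47.6% to 57.5% of the probes per array as well above background. Tests ran on the 31858 probes so marked on both arrays of at least 1 population. The SD between replicate arrays was 0.20 to 0.25 log2 units over all these probes. The transfected transcript matched the labels. Of 4 NR2F1-AS1 probes, A_19_P00320140 exceeded Control at least 15.1-fold in BT474-Var1 cells and A_24_P51080 exceeded it by a fitted 6.92 log2 units in BT474-Var4 cells (limma, adjusted P = 0.00233 and 0.00846). Each of these probes entered the tests only through the population named for it, where it was high, and these P do not allow for that. The Control mean of A_24_P51080, -5.34, lay below the dimmest level above background on either Control array (-4.255 and -4.507). All 9 luminal and HER2 amplicon markers were above background on all arrays. Of the markers of other cells, COL1A1, PTPRC, CDH5 and VWF were too, each through at least 1 probe. All 6 arrays lay on 1 slide, and the file headers place each by a pair of position indices. The first was 2 for the BT474-Var1 arrays and 1 for the other 4, and the second was 1 and 2 for Control but 3 and 4 for both BT474-Var1 and BT474-Var4 cells. Position and population therefore cannot be told apart in any of the 3 comparisons. RNA came from whole cultures, in which less RNA in every cell and fewer cells with that RNA cannot be told apart.

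Of the 12 member probes, 8 passed the filter on dim probes, for MT1A, MT1E (2 probes), MT1F, MT1X, MT2A, MT3 and MTF1. The probes of MT1G, MT1H and MT1M were above background on no array, and the third MT1E probe on 2 of the 6. No member spot was saturated or marked as an outlier (0 of each). The plot of levels gives all 12 probes.

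**Figure D1:**
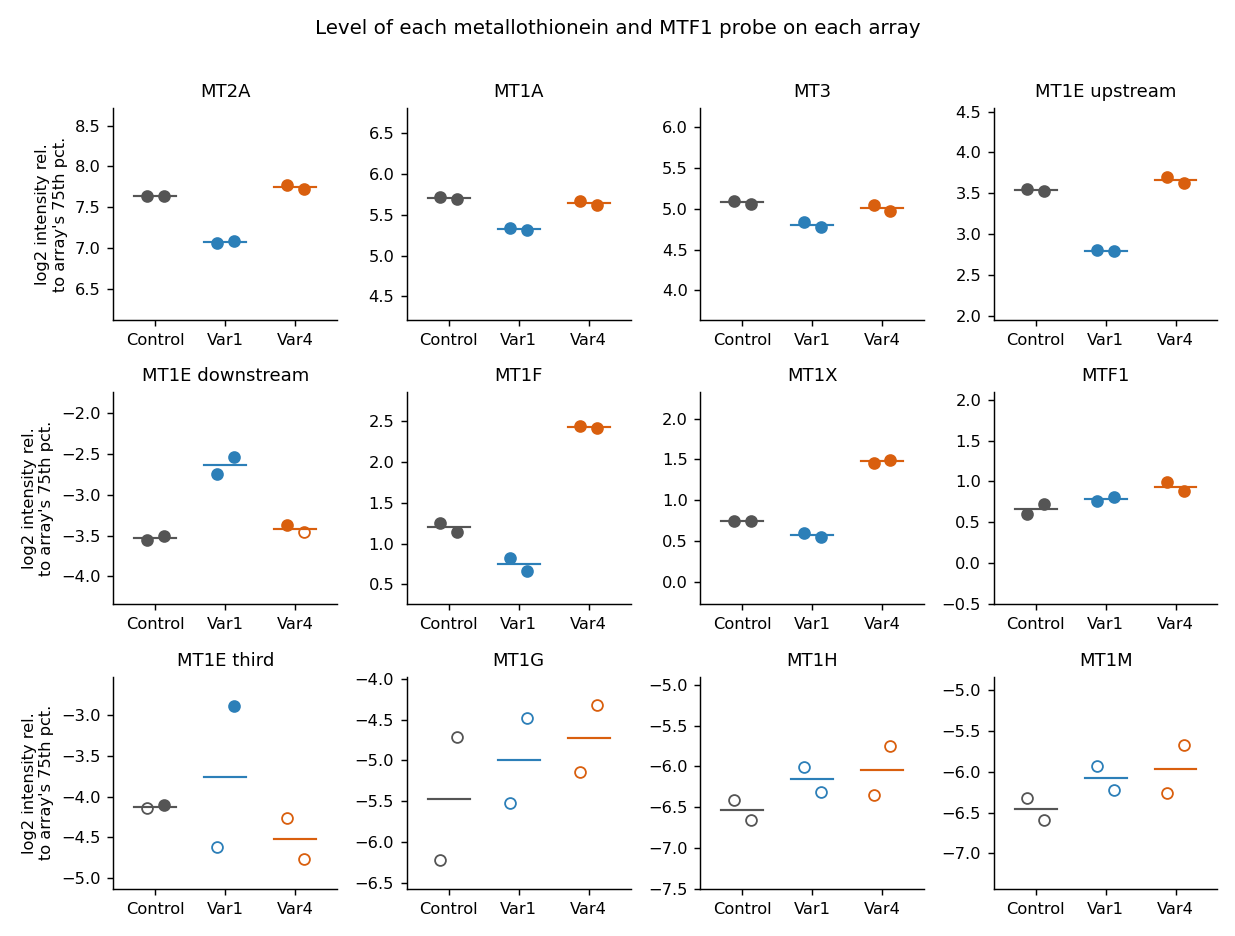
Level of each of the 12 member probes (log2 intensity relative to the array's 75th percentile) on the 2 arrays of Control, BT474-Var1 (Var1) and BT474-Var4 (Var4) cells. Each panel has its own vertical position but the same span; filled points are well above background, open points are not, and lines are means of 2 arrays. The BT474-Var1 arrays are lowest for MT2A, MT1A, MT3, the upstream MT1E probe, MT1F and MT1X, and the BT474-Var4 arrays are highest for MT1F and MT1X.

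In BT474-Var1 cells most metallothionein transcripts measured were lower than in Control cells. MT2A, MT1A, MT3, MT1F and the upstream MT1E probe fell, the downstream MT1E probe rose, and MT1X and MTF1 did not pass the test. That is 5 lower and 1 higher of the 8 probes at an adjusted P of 0.05, where 20.3% of all tested probes were lower and 14.1% were higher. The median change of the 8 was -0.32 log2 units, against -0.04 over all tested probes.

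MT2A, the broadly expressed metallothionein, gave levels of 7.64 and 7.64 in Control, 7.07 and 7.09 in BT474-Var1, and 7.77 and 7.72 in BT474-Var4 cells. The BT474-Var1 arrays lay below the other 4, by far more than the replicates differed. The change from Control was -0.56 ± 0.05 log2 units (SE, 2 arrays per group), which is 1.48-fold lower (limma, adjusted P = 0.00483). The largest fall among the 8 probes in this comparison was that of the upstream MT1E probe. Its levels were 3.55 and 3.52 in Control, 2.80 and 2.79 in BT474-Var1, and 3.70 and 3.63 in BT474-Var4 cells. The BT474-Var1 arrays again lay apart, at -0.74 ± 0.05 log2 units, or 1.67-fold lower (limma, adjusted P = 0.0038). These falls of MT2A and of the upstream MT1E probe passed the test in each of the 15 alternatives tried, with adjusted P up to 0.0499 for MT2A and 0.0456 for MT1E.

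MT1A, which encodes a metal-binding protein of the MT1 group, had levels of 5.71 and 5.69 in Control, 5.34 and 5.31 in BT474-Var1, and 5.67 and 5.62 in BT474-Var4 cells. The fall in BT474-Var1 cells was -0.37 ± 0.05 log2 units (SE, limma, adjusted P = 0.00943). MT3, which can restrain neurite growth, had levels of 5.10 and 5.06 in Control, 4.84 and 4.77 in BT474-Var1, and 5.05 and 4.98 in BT474-Var4 cells. It is the smallest of the changes that passed, at -0.27 ± 0.06 log2 units (limma, adjusted P = 0.0254). MT1F had levels of 1.25 and 1.14 in Control, 0.82 and 0.67 in BT474-Var1, and 2.44 and 2.42 in BT474-Var4 cells. Its fall was -0.46 ± 0.08 log2 units (limma, adjusted P = 0.0158), and the groups did not overlap. Without Control replicate A the adjusted P was 0.0719 for MT1A, 0.133 for MT3 and 0.0941 for MT1F, and 2 of the 8 probes passed in all. Without Control replicate B it was 0.0559, 0.096 and 0.057, and 3 of the 8 passed.

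MT1X stood at 0.74 and 0.75 in Control, 0.59 and 0.55 in BT474-Var1, and 1.457 and 1.497 in BT474-Var4 cells. The difference between BT474-Var1 and Control, -0.18 ± 0.05 log2 units, missed the threshold (limma, adjusted P = 0.0563), with a 95% interval of -0.31 to -0.04. It passed in 3 of 15 alternatives. None of the 8 probes reached 2-fold with an adjusted P under 0.05 in limma (0 of 8, against 3.94% of all tested probes), and at an unadjusted P under 0.05 with no minimum fold 7 of the 8 passed, where 46.4% of all tested probes did. The one-way analysis named in the study's methods also called 0 at 2-fold.

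Markers moved with this contrast as well. Of 15 tested luminal marker probes, 5 rose and 3 fell in BT474-Var1 cells, where 14.1% of all tested probes rose and 20.3% fell. Their summed intensity (1 unit is an array's 75th percentile) was 2770 to 2810 against 2220 to 2260. Bright probes weigh most in that sum, and KRT19, at 9.88 in Control cells, changed by 0.62 log2 units. The 3 that fell were EPCAM (-0.66), CDH1 (-0.47) and a KRT18 probe (-0.26). The 3 endothelial markers summed to 2.04 to 2.2 against 2.85 to 3.07. VWF changed by -0.87 log2 units through 1 probe and by -0.11 through another (limma, adjusted P = 0.00577 and 0.23). CDH5 changed by -0.27 (limma, adjusted P = 0.169). The 5 fibroblast markers summed to 2.87 to 2.92 against 2.26 to 2.31. The 3 leukocyte markers found by name summed to 1.42 to 1.43 against 1.27 to 1.34. The part of these in the metallothionein changes was not tested.

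In BT474-Var4 cells the pattern was another. MT1F and MT1X rose and no member fell, so 2 of the 8 probes were higher and 0 lower, where 9.87% of all tested probes were higher and 14.3% lower. MT1F alone passed the 2-fold rule, 1 of 8 against 3.17% of all tested probes. The median change of the 8 was 0.12 log2 units, against -0.08 over all tested probes.

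The MT1F arrays of BT474-Var4 cells, at 2.44 and 2.42, stood above both Control arrays (1.25 and 1.14). The rise was 1.23 ± 0.08 log2 units, or 2.34-fold (limma, adjusted P = 0.00385), with a 95% interval of 1.02 to 1.44. It was between 1.08 and 1.28 in all 15 alternatives and passed in each. MT1X, which like MT1F encodes a metal-binding MT1 protein, rose by 0.73 ± 0.05 log2 units, or 1.66-fold (limma, adjusted P = 0.00428). Without Control replicate A the MT1X change was 0.73 with an adjusted P of 0.0531. Relative to MT2A on the same arrays, which needs no scaling between arrays, MT1F was 1.12 and MT1X 0.62 log2 units above its Control value in BT474-Var4 cells. The same differences were 0.11 and 0.38 in BT474-Var1 cells, where MT2A itself fell, and none of the 4 values had a test of its own.

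For the other members the differences between BT474-Var4 and Control cells were small and did not pass. MT2A differed by 0.11 log2 units (95% interval -0.03 to 0.24), which passed in 2 of 15 alternatives. The upstream MT1E probe differed by 0.12 (-0.01 to 0.26). MT3 differed by -0.07 (-0.22 to 0.08). MT1A differed by -0.06 (-0.19 to 0.08), which turned to 0.01 under quantile normalization, and the downstream MT1E probe by 0.11 (-0.13 to 0.36), which turned to -0.05 after normexp background correction. These intervals do not show that the levels were equal.

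MTF1, the zinc-sensing regulator, has its gene on chromosome 1, and its probe lay at hg19 chr1:38275414-38275473 on the minus strand. It stood at 0.60 and 0.73 in Control, 0.76 and 0.81 in BT474-Var1, and 0.99 and 0.88 in BT474-Var4 cells. All 4 arrays of the transfected populations were above both Control arrays, but the replicates of Control differed by more than the gap to BT474-Var1. Neither change passed the test, at 0.12 ± 0.08 log2 units for variant 1 (limma, adjusted P = 0.27) and 0.27 ± 0.08 for variant 4 (limma, adjusted P = 0.0664, 95% interval 0.07 to 0.47). The second of these passed in 3 of 15 alternatives, with adjusted P between 0.00946 and 0.246 over all of them.

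Fibroblast markers moved with the BT474-Var4 contrast. COL1A1, a collagen gene, stood at 1.17 and 1.12 in Control and 2.19 and 2.17 in BT474-Var4 cells, a rise of 1.03 log2 units (limma, adjusted P = 0.00293). DCN, which encodes the matrix proteoglycan decorin, exceeded Control at least 7.11-fold through 1 of its 2 probes (limma, adjusted P = 0.0125). That probe passed the filter on dim probes only through BT474-Var4 cells, where it was high, and this P does not allow for that. COL1A2, COL3A1 and LUM were above background on no array. The 5 markers summed to 4.88 to 5.00 in BT474-Var4 cells, against 2.26 to 2.31 in Control. Of 15 tested luminal marker probes, 1 rose and 2 fell, where 9.87% of all tested probes rose and 14.3% fell. The 2 that fell were ESR1 probes (-0.47 and -0.85), and another ESR1 probe did not pass (-0.06). Luminal markers summed to 2190 to 2210 against 2220 to 2260, endothelial ones to 2.70 to 2.84 against 2.85 to 3.07, and leukocyte ones to 1.12 to 1.27 against 1.27 to 1.34. The part of these in the rise of MT1F and MT1X was not tested.

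**Figure D2:**
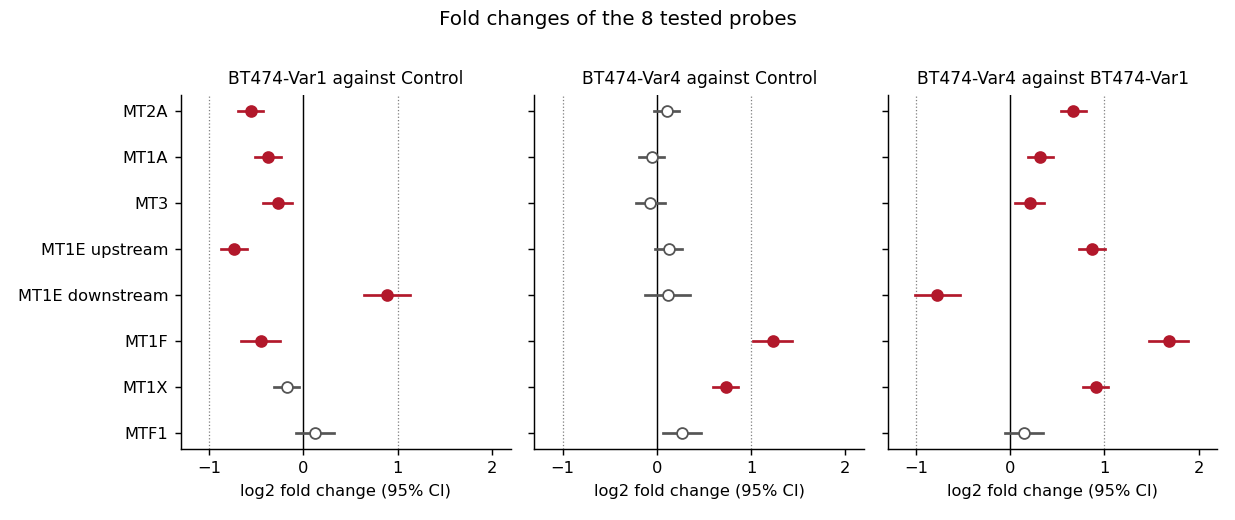
Log2 fold change of the 8 tested probes in each comparison, with 95% intervals from the limma fit. Red filled points passed an adjusted P of 0.05, gray open points did not, and dotted lines mark 2-fold. MT1F passes 2-fold in BT474-Var4 cells against both other populations, and the downstream MT1E probe is opposite in direction to the upstream probe wherever BT474-Var1 cells enter.

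The transfected populations were then compared with each other. MT1F, MT1X, the upstream MT1E probe, MT2A, MT1A and MT3 were higher with variant 4 than with variant 1, and the downstream MT1E probe was lower. That is 6 higher and 1 lower of 8, where 20.4% of all tested probes were higher and 20.8% lower. The median of the 8 was 0.49 log2 units, against -0.03 over all tested probes. MT1F differed by 1.68 ± 0.08 log2 units, or 3.21-fold (limma, adjusted P = 0.00126), and was the 1 probe of 8 past 2-fold, against 6.86% of all. MT1X differed by 0.91 ± 0.05, the upstream MT1E probe by 0.86 ± 0.05 and MT2A by 0.67 ± 0.05 log2 units (limma, adjusted P = 0.00148, 0.00166 and 0.0023).

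The remaining differences between the transfected populations were smaller. MT1A was higher by 0.32 ± 0.05 log2 units (limma, adjusted P = 0.0112), and the adjusted P rose to 0.0507 without BT474-Var1 replicate A, 0.0551 without BT474-Var1 replicate B and 0.0508 without BT474-Var4 replicate A. MT3 was higher by 0.21 ± 0.06 (adjusted P = 0.0461) and lost the call in 11 of 16 alternatives, among them the loss of any 1 of the 6 arrays, with adjusted P of 0.094 to 0.163. MTF1 differed by 0.15 ± 0.08 (adjusted P = 0.187). These values and the comparisons with Control rest on the same 6 arrays and are not independent of each other.

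The MT1E probes did not give 1 answer for the gene. The downstream probe was dim, with processed intensities of 9.20 and 9.34 in Control, 14.7 and 17.0 in BT474-Var1, and 10.8 and 10.4 in BT474-Var4 cells, the last of which was not above background. On the log2 scale its levels were -3.56 and -3.50, then -2.75 and -2.53, then -3.37 and -3.45. Both BT474-Var1 arrays lay above the other 4, by 0.89 ± 0.09 log2 units from Control (limma, adjusted P = 0.00576). The upstream probe, with intensities of 1266 and 1216 in Control cells, fell in the same arrays. With normexp background correction the rise of the downstream probe shrank to 0.15, and without Control replicate A its adjusted P was 0.0521. The third MT1E probe had levels of -4.13 and -4.11 in Control, -4.62 and -2.89 in BT474-Var1, and -4.26 and -4.77 in BT474-Var4 cells. Its BT474-Var1 replicates lay on both sides of the Control arrays and further apart than the replicates of either other population, and it was not tested.

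MT1G, MT1H and MT1M gave no usable signal. Their levels over the 6 arrays ran from -6.22 to -4.32 for MT1G, from -6.65 to -5.75 for MT1H and from -6.59 to -5.67 for MT1M. No array was above background for any of them, so no fold change is given.

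Other metallothionein genes and pseudogenes on the array were mostly lower with variant 1 as well. Of the 5 probes tested, for 4 genes, 4 fell and 0 rose in BT474-Var1 cells, with a median of -0.64 log2 units. Over all tested probes 20.3% fell and 14.1% rose there. In BT474-Var4 cells 1 was higher and 0 lower, with a median of 0.09, where 9.87% of all tested probes were higher and 14.3% lower. The genes of the 4 are named after their values were seen. MT1B had changes of -0.64 and -0.70 log2 units through 2 probes, MT1L -0.62 and MT1HL1 -0.67 (limma, adjusted P = 0.0047, 0.00379, 0.00496 and 0.00418). Against BT474-Var1 cells the same 4 probes were 0.71 to 0.91 log2 units higher in BT474-Var4 cells, and all 4 passed. Between probes, 49 of 59 bases were alike for the upstream MT1E probe and a probe of MT1B. The MT1L probe matched the upstream MT1E probe at 38 of 42 bases and that MT1B probe at 38 of 43. The annotation lists both MT1H and MT1HL1 for the MT1HL1 probe. Whether each probe reads its own gene alone was not tested.

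Genes that lie next to the cluster on chromosome 16 but are no metallothioneins were also lower in BT474-Var1 cells. The 11 tested probes for 9 genes lay 269 kb to 1 side and up to 537 kb to the other side of the MT2A probe. Of these, 7 were lower and 1 higher, with a median of -0.42 log2 units. Over all tested probes 20.3% were lower and 14.1% higher, with a median of -0.04. In BT474-Var4 cells 2 were lower and 0 higher, with a median of -0.12. The shares over all tested probes were 14.3% and 9.87% there, with a median of -0.08. NUDT21, a pre-mRNA 3′ processing factor, changed by -0.58 and -0.68 log2 units through 2 probes in BT474-Var1 cells, and BBS2, a cilium gene, by 0.29. These names were picked after their values were seen. The rises of MT1F and MT1X in BT474-Var4 cells, 49.7 and 74.6 kb from the MT2A probe, had no counterpart of that size among the 11.

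**Figure D3:**
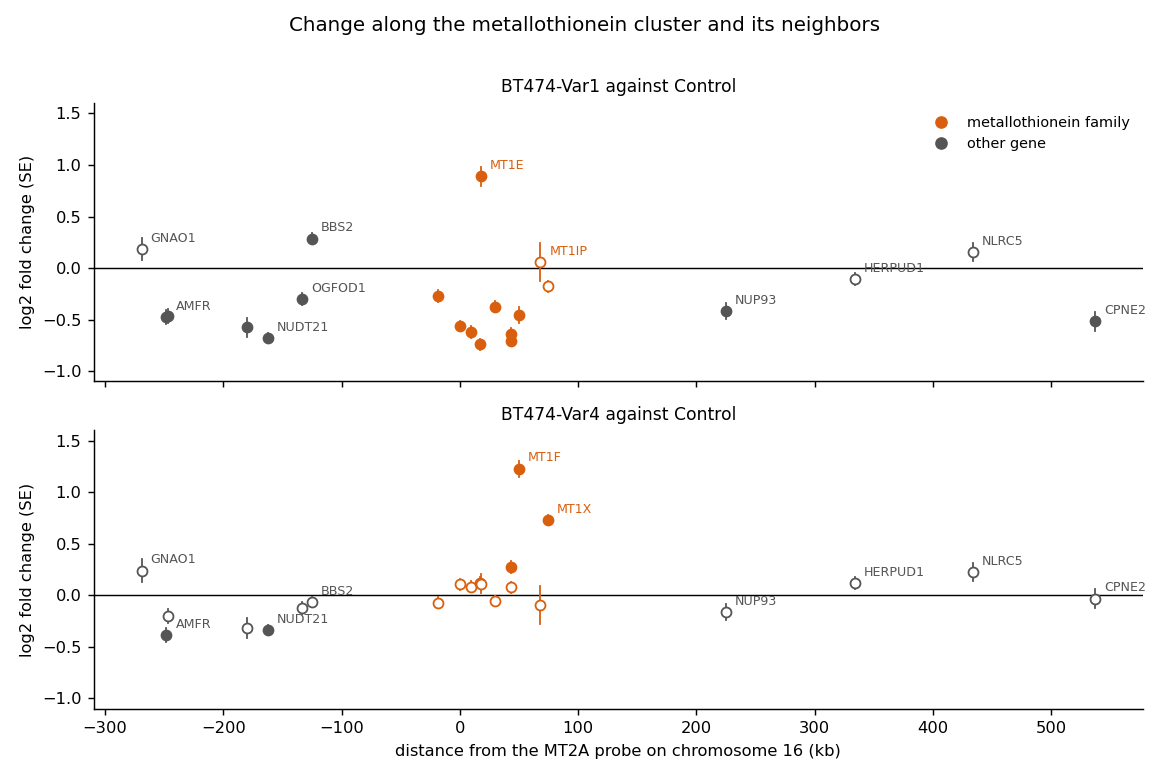
Log2 fold change (bars are SE) of tested probes on chromosome 16 against their distance from the MT2A probe in kb, for BT474-Var1 (top) and BT474-Var4 cells (bottom) against Control. Orange points are metallothionein genes and pseudogenes, gray points are other genes, and filled points passed an adjusted P of 0.05. Orange points lie mostly below 0 at the top, and 2 of them, MT1F at 1.23 and MT1X at 0.73, lie well above 0 at the bottom.

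The genes that move zinc and copper were described by 4 lists. Zinc exporters (SLC30 family, 11 tested probes) had 2 higher and 3 lower in BT474-Var1 cells and 1 higher and 2 lower in BT474-Var4 cells, with medians of -0.15 and -0.01 log2 units. Zinc importers (SLC39 family, 13 tested probes) had 2 higher and 5 lower, then 2 higher and 3 lower, with medians of -0.11 and -0.08. Copper-handling genes (16 tested probes) had 4 higher and 8 lower, then 2 higher and 5 lower, with medians of -0.16 and -0.04. Over all tested probes, 14.1% were higher and 20.3% lower in BT474-Var1 cells, and 9.87% and 14.3% in BT474-Var4 cells. Each of these lists held probes that passed in either direction.

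SLC30A1, the zinc exporter best known as an MTF1 target, differed from Control by -0.21 ± 0.07 log2 units with variant 1 and -0.06 ± 0.07 with variant 4 (limma, adjusted P = 0.0826 and 0.573). SLC39A4, an importer at the plasma membrane, stood at 1.58 and 1.70 in Control, 1.21 and 1.21 in BT474-Var1, and 2.43 and 2.49 in BT474-Var4 cells. Its order across the populations was that of MT1F and MT1X, and also of MT2A, the upstream MT1E probe, MT1B, MT1L and MT1HL1. SLC39A4 differed by 1.25 ± 0.06 log2 units between BT474-Var4 and BT474-Var1 cells (limma, adjusted P = 0.00133). SLC39A7, which releases zinc from the endoplasmic reticulum, stood at 1.45 and 1.43 in Control, 2.33 and 2.25 in BT474-Var1, and 1.21 and 1.26 in BT474-Var4 cells. Here the BT474-Var1 arrays were the high ones, and the difference of BT474-Var4 from BT474-Var1 cells was -1.05 ± 0.06 log2 units (limma, adjusted P = 0.00139). SLC39A8, an importer of zinc and manganese, fell 1.65-fold in BT474-Var4 cells through its brighter probe (limma, adjusted P = 0.00574), while its dimmer probe passed the 2-fold rule but was not above background in BT474-Var4 cells and gives a bound of at least 1.02-fold.

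MTF1 targets outside the family (6 tested probes) had 1 higher and 2 lower in BT474-Var1 cells and 1 higher and 1 lower in BT474-Var4 cells. Over all tested probes the shares were 14.1% higher and 20.3% lower, then 9.87% and 14.3%. PGF, a growth factor of the VEGF family, was the higher gene of this list in both. Its levels were -5.11 and -4.81 in Control, -3.96 and -4.10 in BT474-Var1, and -0.86 and -0.84 in BT474-Var4 cells. It was above background on both BT474-Var4 arrays, on 1 of the BT474-Var1 arrays and on neither Control array. That puts the BT474-Var4 level at least 11.6-fold above Control (limma, adjusted P = 0.00202). The PGF probe passed the filter on dim probes only through BT474-Var4 cells, where it was high, and this P does not allow for that. No other probe of that list passed in the upward direction, and the median of the 6 in BT474-Var4 cells was -0.09 log2 units. HAMP, which encodes the iron hormone hepcidin, fell by 0.55 log2 units there (limma, adjusted P = 0.0273), a gene named after its values were seen.

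**Figure D4:**
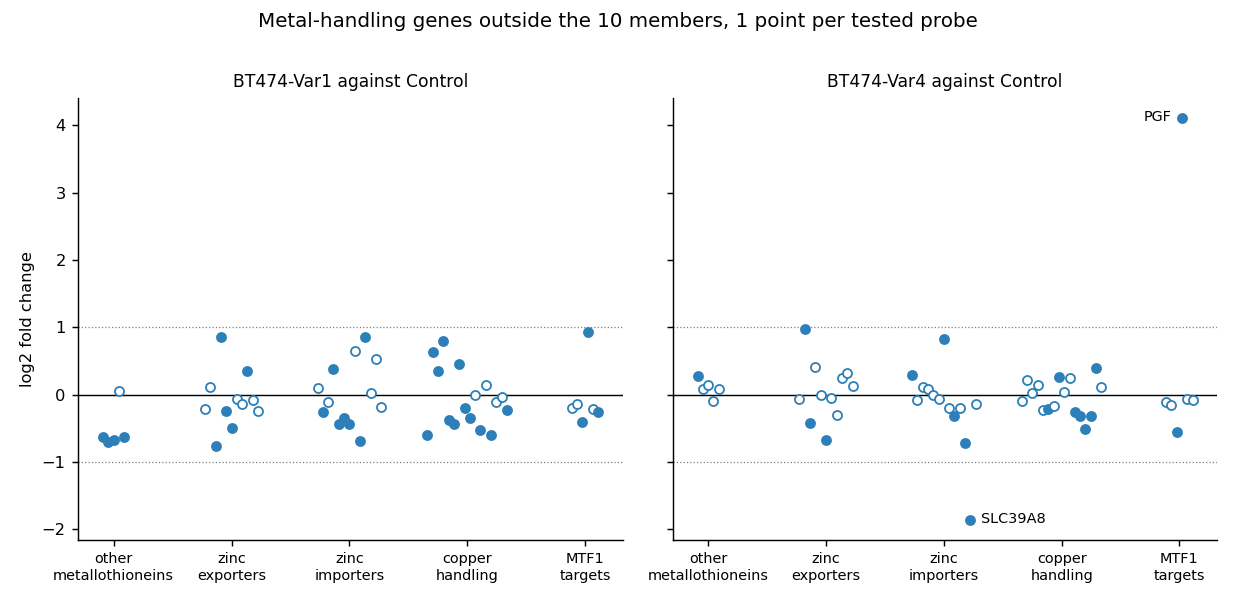
Log2 fold change of each tested probe of 5 gene lists, for BT474-Var1 (left) and BT474-Var4 cells (right) against Control. Filled points passed an adjusted P of 0.05, open points did not, and dotted lines mark 2-fold; PGF and SLC39A8 are named because they passed the 2-fold rule, and their points are fitted values of groups partly below background. The 4 filled points of the other metallothionein list at the left lie between -0.70 and -0.62.

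Profiles over the 6 arrays were compared with that of MT2A, which by rule served as the reference profile because its probe was the brightest of the tested metallothionein probes, which says nothing of RNA amounts. Each profile was centered on its own mean, and likeness was the root mean square distance in log2 units over 6 arrays. The nearest of 21384 probes of other named genes were DPP9-AS1 (0.0234), CEBPB (0.0239), SORT1 (0.0244), ERP27 (0.0275) and PHF19 (0.0276). CEBPB, a leucine zipper transcription factor, had centered values of 0.14 and 0.13 in Control, -0.39 and -0.37 in BT474-Var1, and 0.29 and 0.21 in BT474-Var4 cells, where MT2A had 0.15 and 0.15, -0.42 and -0.40, and 0.28 and 0.23. Of the other member probes the upstream MT1E probe was nearest to MT2A at 0.0894, with 547 tested probes nearer. Among family genes that are no members, MT1L was at 0.0291, MT1HL1 at 0.066 and MT1B at 0.0666 and 0.1064 through its 2 probes. MT1F, at 0.51, and the downstream MT1E probe, at 0.68, were far from it, with 24173 and 28551 tested probes nearer.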

How the data were processed

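The authors labeled total RNA with Cy3 and hybridized it to one-color Agilent arrays. Feature Extraction 11.5.1.1 had subtracted the background, and the deposited scanner files hold processed intensity per spot. The authors also deposited log2 values after a shift to each array's 75th percentile, which differed from those computed here by a median of at most 0.00716. The members, gene lists and 2-fold rule were chosen with earlier results of these data known, and the count at an adjusted P of 0.05 alone was added after the values were seen.

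Outlier spots were left out, spots of a probe averaged, and the 75th percentile over probes subtracted. With limma 3.58.1 under R 4.3.3, population means were fitted to all 6 arrays, with eBayes and Benjamini-Hochberg adjustment over 31858 probes. A population above background on no array gives a bound, against the dimmest probe above background on each array. The steps were tested on simulated data in which 200 probes of BT474-Var1 cells were shifted by a known amount. At a shift of 1 log2 unit 54% of these were recovered, and at 2 units 80.5%, with 2 and 8 false calls. A probe that did not pass may therefore still have changed. Every member probe is reported. Genes of other lists are named where a probe passed 2-fold and the adjusted P, up to 5 per list, with SLC30A1 in any case, and the 5 genes most like MT2A are named. Alternatives were the deposited table, normexp (offset 50), quantile normalization, a stricter filter (above background on all 6 arrays) or none, a replicate block, eBayes with trend and robust estimation, the methods' one-way analysis of variance, only the populations compared, each array left out, and the second slide position index as a block. The number of arrays limits the precision.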

Additional observations from a re-analysis of the deposited data

How the results depend on the processing

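Over 365 refitted changes of the 8 probes, 324 kept their direction and their side of the threshold, 31 lost the call, 8 gained it and 2 turned, both in BT474-Var4 against Control: the downstream MT1E probe to -0.0543 under normexp background correction and MT1A to 0.014 under quantile normalization. For BT474-Var1 against Control, 6 probes passed, but 3 with no filter on dim probes, and 2 to 6 with 1 array left out. For BT474-Var4 against Control, 2 passed, but 4 with eBayes trend and robust estimation, and 1 to 2 with 1 array left out. For BT474-Var4 against BT474-Var1, 7 passed and the alternatives gave 5 to 7. Counts at 2-fold stayed at 0, 1 and 1 throughout. The letters A and B are not stated to pair samples. Correlations of A minus B between populations were -0.012 to 0.045, which does not settle whether samples were paired. The replicate block gave 6, 2 and 6 passing probes, with MT3 lost between BT474-Var4 and BT474-Var1 (adjusted P = 0.0609 in limma). A block on the second position index could be fitted for that comparison alone and gave 5, and it does not adjust for the first index, which differs between these populations. No cause of these shifts was tested.

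Over all probes the 2-fold calls depended most on normexp, which gave 170, 152 and 363 against 1256, 1010 and 2187. They fell to 672, 570 and 1212 with the filter on all 6 arrays, to 492 for BT474-Var4 against Control with no filter, to 509 without Control replicate A, and to 632 with the methods' one-way analysis after adjustment. At an adjusted P alone, no filter gave 2669, 720 and 5117 passing probes against 10959, 7709 and 13117. Dim probes such as those of MT1G, MT1H, MT1M and MT1E downstream limit what can be measured.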
